A study of Mus musculus with 13 samples.

Results

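The potassium channel genes were examined for KAT7 (also called HBO1), a lysine acetyltransferase, and for acetylated lysine 14 of histone H3 (H3K14ac), the mark that KAT7 deposits. Members were taken by gene symbol (Kcn, then letters, then a number), so pore-forming and auxiliary subunits are both included. Of 92 such genes in the RefSeq gene table, 88 had a gene body entry among the 20689 gene bodies of the deposited table. Kcnk15, Kcnk9, Kcnmb2 and Kcnv2 were not analysed here. A CpG island held the transcription start site (TSS) of 34 of the 88 genes, out of 9153 islands that hold a TSS.

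The study used chromatin immunoprecipitation and sequencing (ChIP-seq) on mouse neural stem and progenitor cells, isolated from embryonic cortices and ganglionic eminences at E14.5 and grown as neurospheres to passage 5, day 3. Kat7-deleted cells were Kat7lox/lox NesCreT/+ (3 H3K14ac libraries and 1 KAT7 library) and Kat7-intact cells were Kat7+/+ NesCreT/+ (4 H3K14ac and 3 KAT7 libraries). Both genotypes carried the nestin-driven Cre transgene, and each experiment had 1 IgG library. The deposited table gives 1 merged value per antibody and region, without saying which libraries or genotypes entered it, so no genotype comparison was made.

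Potassium channels let potassium ions leave or enter a cell along their gradient and so set the resting membrane potential and shape the action potential. The voltage-gated, EAG-related and KCNQ channels open on depolarisation, the calcium- and sodium-activated channels respond to intracellular ions, inward rectifiers pass current best near rest, and two-pore-domain channels carry leak current. Most are known for their roles in differentiated neurons, glia, muscle and epithelia, and auxiliary subunits alter gating or trafficking of the pore-forming ones.

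Values are RPKM, in which reads are divided by region length and by the total of the column, with an exact 95% Poisson interval in parentheses. Read totals, recovered from count, length and RPKM, were 134 × 1e6 for KAT7 and 142 × 1e6 for H3K14ac. All intervals cover counting error alone, because there are no replicates behind a merged value, and no p-value is given. Each member was set against the median RPKM of all other regions of its class with a length within 25% of its own. This quotient is called the relative level, and a level at least 25% above or 20% below that median was counted as high or low. A region was so counted whether or not its counting interval held the median. Background reads were not subtracted, since no IgG column was used. Since the antibodies differ, a ratio of KAT7 to H3K14ac compares scaled reads alone. Markers of neural stem cells and radial glia had high relative KAT7 levels at 6 of 8 TSS islands and 6 of 10 gene bodies, where 20.3% of all islands and 3.26% of all bodies were high. H3K14ac was high at 6 of those 8 islands and 3 of those 10 bodies, where 27.6% and 3.36% of all were. Neuron markers were high at 1 of 4 islands and 0 of 7 bodies for KAT7, and likewise at 1 of 4 and 0 of 7 for H3K14ac. High levels were not limited to stem cell markers. Of the oligodendrocyte lineage markers, the bodies of Olig2 (3.11) and Olig1 (2.89) had the highest relative KAT7 levels, and Sox10 (0.875) and Mbp (0.900) the lowest. Astrocyte marker bodies lay between 0.881 (Gja1) and 1.06 (Aqp4) for KAT7.

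Promoter sequences of 3 members are shown because they differ in CpG content and in KAT7 level. They are the 250 bases before the RefSeq TSS (GRCm38.p6, the mm10 assembly), chosen from the 17 members for which these bases hold no RefSeq gene. Capitals mark CpG dinucleotides. Kcnj6 (chr16:94997697-94997946, minus strand) had the highest relative KAT7 level at its island among them. Kcnk5 (chr14:20181783-20182032, minus strand) had the lowest. Kcna10 (chr3:107182893-107183142, plus strand) had no island and the lowest relative KAT7 level over its body among those without one.
Kcnj6: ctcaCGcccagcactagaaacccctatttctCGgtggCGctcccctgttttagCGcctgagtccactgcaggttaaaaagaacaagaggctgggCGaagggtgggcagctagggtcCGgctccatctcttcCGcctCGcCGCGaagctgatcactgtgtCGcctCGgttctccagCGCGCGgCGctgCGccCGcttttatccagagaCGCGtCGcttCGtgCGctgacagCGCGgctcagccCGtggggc
Kcnk5: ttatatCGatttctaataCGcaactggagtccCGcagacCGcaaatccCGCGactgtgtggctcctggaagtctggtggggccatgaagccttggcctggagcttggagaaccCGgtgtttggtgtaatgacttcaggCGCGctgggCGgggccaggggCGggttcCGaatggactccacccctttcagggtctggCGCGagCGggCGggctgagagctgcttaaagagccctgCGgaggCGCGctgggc
Kcna10: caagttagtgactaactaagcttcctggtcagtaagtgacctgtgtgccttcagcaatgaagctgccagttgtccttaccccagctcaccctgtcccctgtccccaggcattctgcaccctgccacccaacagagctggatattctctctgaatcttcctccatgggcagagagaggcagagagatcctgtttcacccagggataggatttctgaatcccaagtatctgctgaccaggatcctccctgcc
The Kcnj6 stretch holds 26 CpG dinucleotides, the Kcnk5 stretch 19 and the Kcna10 stretch 0. Of the Kcnj6 stretch 134 bases lie inside the CpG island, and of the Kcnk5 stretch all 250 do.

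Channel gene promoters held fewer CpG dinucleotides than other promoters, but not once promoters with and without an island were split. Of the 88 genes 38.6% had a TSS island, against 48.6% of all genes. For 47 members a RefSeq promoter of 300 bases (250 before and 50 after the TSS) lay within 50 bases of the table's TSS. These held a median of 10 CpG dinucleotides, against 17 in the promoters of 13141 other genes. Among promoters with an island the medians were 25.5 for members and 25 for other genes, and without one they were 6 for both. Letters were also searched on both strands. TATAAA occurred in 2.13% of member promoters and 9.98% of other promoters, CCAAT in 23.4% and 38.7%, TGACG in 23.4% and 27.3%, and CANNTG in 72.3% and 67.0%. GGACAG occurred in 29.8% of member promoters and 23.4% of others, and CAGCACC in 6.38% and 7.56%; these are letters found within the site of the neuronal repressor REST, and a match is a description, not a bound site.

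The table marks genes as Top, Bottom or Other in expression. No channel gene was in the Top class, against 5.00% of all genes, and 9 members (10.2%) were in the Bottom class, against 5.00%. These were Kcnb2, Kcne1, Kcnh1, Kcnj1, Kcnj3, Kcnj6, Kcnmb1, Kcns2 and Kcnt2. The expression data behind the classes were not analysed here.

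At the TSS islands, most channel genes lay below islands of similar length in each column, with a small number of voltage-gated genes well above. The median relative level over the 34 islands was 0.887 for KAT7 and 0.860 for H3K14ac, against 0.998 for both antibodies at the other islands. KAT7 was high at 3 member islands and low at 15, where 20.3% and 22.5% of all islands were. H3K14ac was high at 3 and low at 16, where 27.6% and 29.5% of all islands were. For both antibodies the share of low members was larger than that of all islands, and the share of high ones was smaller; no test was made.

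**Figure D1:**
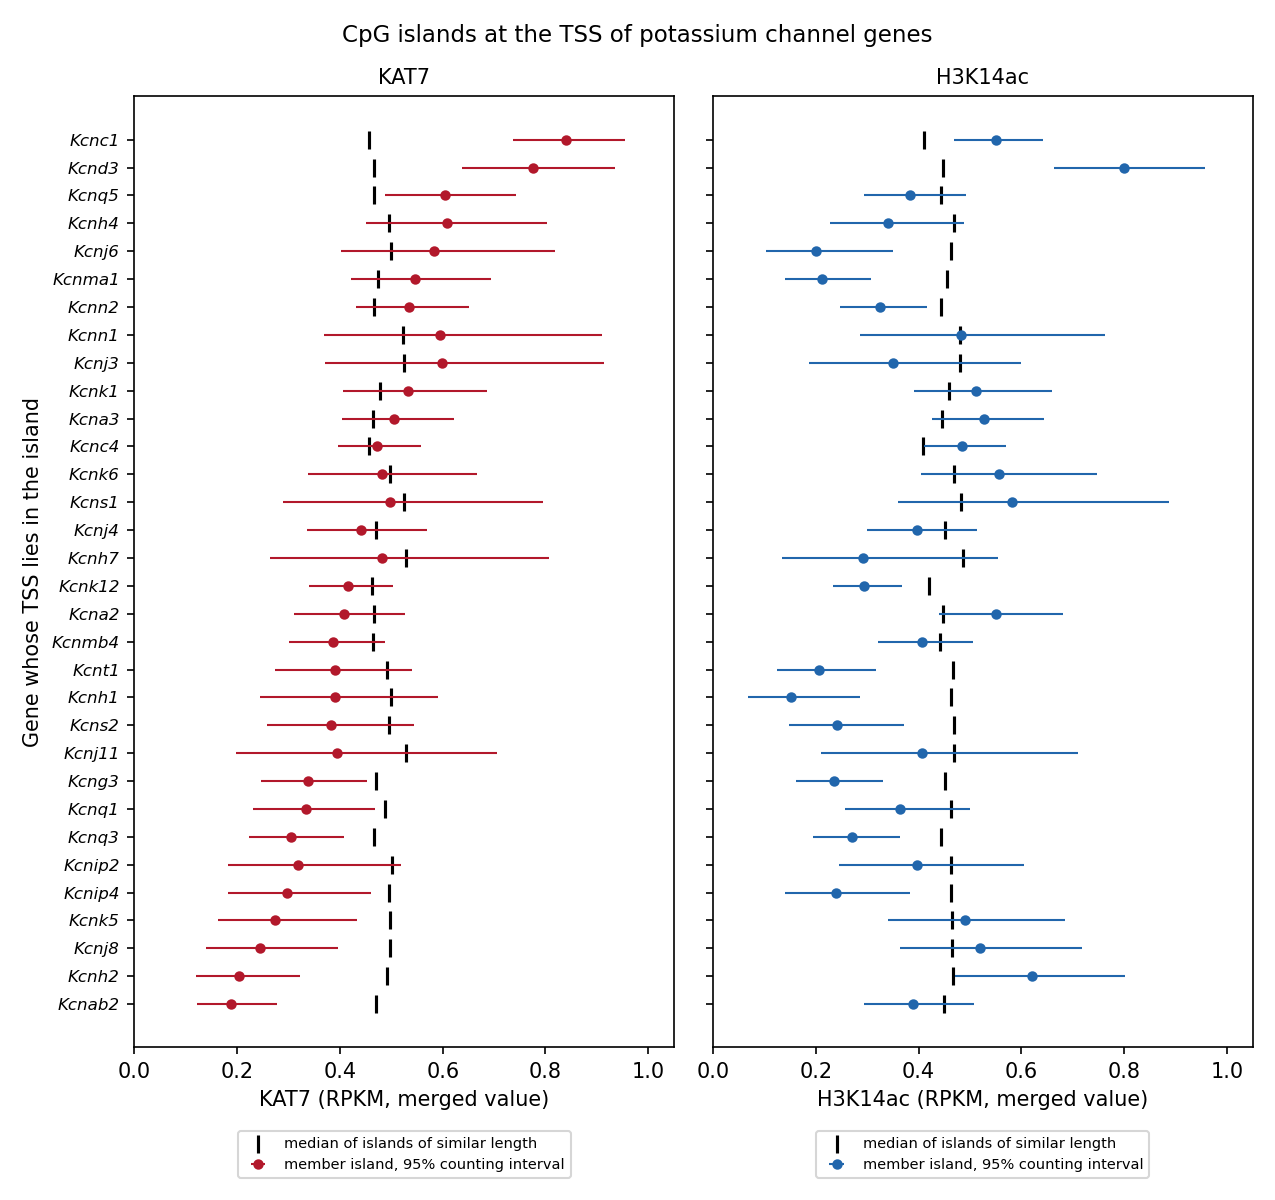
KAT7 (left) and H3K14ac (right) RPKM at 32 of the 34 CpG islands that hold the TSS of a potassium channel gene, ordered by relative KAT7 level; points are merged values with 95% counting intervals, and black ticks are medians of islands of similar length. Kcnc1 and Kcnd3 lie to the right of their tick in both panels, Kcnab2 and Kcnh2 lie far to the left for KAT7, and Kcnh1 lies far to the left for H3K14ac.

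Among voltage-gated channel genes, 6 of 17 had a TSS island, and their median relative level was 1.06 for KAT7 and 1.21 for H3K14ac. Kcnc1 encodes a rapidly gating channel of fast-spiking neurons. Its island (chr7:46396209-46398311) had 237 KAT7 and 164 H3K14ac reads, which is 0.841 RPKM (0.737 to 0.955) for KAT7 and 0.550 (0.469 to 0.641) for H3K14ac. Its relative levels were 1.84 for KAT7 and 1.34 for H3K14ac, so the island was high in both columns and higher in KAT7. Kcnd3 encodes a channel of the transient A-type current. Its island (chr3:105452012-105453070) had 0.775 RPKM (0.637 to 0.934) for KAT7, with 0.800 (0.663 to 0.957) for H3K14ac. These were relative levels of 1.66 for KAT7 and 1.79 for H3K14ac, the highest H3K14ac level among the member islands. This island also holds the TSS of the antisense gene Kcnd3os.

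The other voltage-gated islands were closer to the median or under it. Kcnc4, a relative of Kcnc1, had relative levels of 1.03 for KAT7 and 1.19 for H3K14ac. Kcna2, which encodes an axonal delayed rectifier subunit, had 0.408 RPKM (0.311 to 0.527) for KAT7, with 0.550 (0.439 to 0.681) for H3K14ac. Its island neighbour Kcna3, known from T cells, had 0.505 (0.404 to 0.623) for KAT7, with 0.527 (0.427 to 0.644) for H3K14ac. Subunits that form no channel alone, the silent voltage-gated genes, had islands at 3 of 9 genes. Kcng3 had relative levels of 0.720 for KAT7 and 0.520 for H3K14ac, Kcns2 had 0.769 for KAT7 and 0.513 for H3K14ac, and Kcns1 had 0.948 for KAT7 and 1.20 for H3K14ac. H3K14ac was thus low at Kcng3 and Kcns2 and not at Kcns1.

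Islands of the EAG-related genes differed among themselves. Kcnh2 encodes the delayed rectifier that repolarises the cardiac action potential. At its island (chr5:24351224-24351884) KAT7 was 0.203 RPKM (0.121 to 0.321) from 18 reads and H3K14ac was 0.620 (0.471 to 0.802) from 58 reads. Its relative levels were 0.414 for KAT7 and 1.33 for H3K14ac. Kcnh1, a Bottom-class gene whose product is the founding EAG channel, had the opposite order, with 0.390 (0.244 to 0.590) from 22 KAT7 reads and 0.151 (0.0690 to 0.286) from 9 H3K14ac reads. Kcnh4 had 0.608 (0.450 to 0.804) for KAT7, with 0.340 (0.228 to 0.489) for H3K14ac. So 2 of the 4 EAG-related islands had a KAT7 to H3K14ac ratio whose interval lay above 1, and 1 had it below. Kcnh7 had relative levels of 0.911 for KAT7 and 0.603 for H3K14ac.

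KCNQ genes had islands at 4 of 5 members, the largest share of any class. Kcnq3, which encodes a subunit of the M-current channel of neurons, was low in both columns, with 0.305 (0.223 to 0.407) for KAT7 and 0.270 (0.195 to 0.364) for H3K14ac. Kcnq1, a cardiac and epithelial channel gene, had 0.334 (0.230 to 0.469) for KAT7, with 0.364 (0.257 to 0.499) for H3K14ac. Kcnq5 stood apart from these with 0.605 (0.487 to 0.743) for KAT7, a relative level of 1.30, and 0.384 (0.294 to 0.493) for H3K14ac, a relative level of 0.866.

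Islands of the calcium- and sodium-activated channel genes had more KAT7 than H3K14ac relative to islands of similar length. KAT7 was low at 1 of them (Kcnt1) and H3K14ac at 3, all but Kcnn1. Their median relative level was 1.14 for KAT7 and 0.597 for H3K14ac over 4 islands. Kcnma1 encodes the large-conductance BK channel, and its island (chr14:24004138-24005040) had 0.546 RPKM (0.422 to 0.694) for KAT7 from 66 reads and 0.211 (0.139 to 0.307) for H3K14ac from 27 reads. Kcnn2, a small-conductance channel gene, had 0.533 (0.432 to 0.652) for KAT7, with 0.324 (0.248 to 0.416) for H3K14ac. Kcnt1, the gene of a sodium-activated channel, had 0.391 (0.274 to 0.541) for KAT7, with 0.205 (0.125 to 0.317) for H3K14ac. In these 3 the interval of the ratio lay above 1. Kcnn1 had 0.595 (0.369 to 0.910) for KAT7, with 0.483 (0.286 to 0.763) for H3K14ac, and its ratio could not be told from 1.

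Inward rectifier islands differed among themselves. Kcnj6, a G protein-gated channel gene of the Bottom class whose promoter is printed above, had 0.583 RPKM (0.401 to 0.819) for KAT7 from 33 reads and 0.201 (0.104 to 0.350) for H3K14ac from 12 reads. Kcnj8, which encodes the pore of ATP-sensitive channels in vascular smooth muscle and pericytes, had 0.244 (0.139 to 0.396) from 16 KAT7 reads and 0.519 (0.364 to 0.719) from 36 H3K14ac reads. Relative to islands of similar length, Kcnj6 had 1.17 for KAT7 and 0.433 for H3K14ac, whereas Kcnj8 had 0.491 for KAT7 and 1.12 for H3K14ac. Kcnj3, the partner subunit of Kcnj6 and also in the Bottom class, had 1.14 for KAT7 from 21 reads and 0.728 for H3K14ac from 13 reads. Kcnj4 had 0.940 for KAT7 and 0.880 for H3K14ac, and Kcnj11, the pore subunit of the pancreatic beta-cell ATP-sensitive channel, had 0.747 for KAT7 and 0.869 for H3K14ac.

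Leak channel and auxiliary islands were mostly near or below the median. Kcnk1, of the two-pore-domain class and also expressed in astrocytes, had 0.533 RPKM (0.405 to 0.687) for KAT7, with 0.513 (0.391 to 0.660) for H3K14ac, a relative level of 1.11 for each antibody. Kcnk5, whose promoter is printed above, had 0.274 (0.163 to 0.434) for KAT7, with 0.491 (0.340 to 0.686) for H3K14ac. Kcnk12 had relative levels of 0.899 for KAT7 and 0.700 for H3K14ac, and Kcnk6 had 0.968 for KAT7 and 1.19 for H3K14ac. None of the 4 auxiliary islands reached the median for KAT7. Kcnab2, which encodes a cytoplasmic beta subunit of Kcna channels, had the lowest relative KAT7 level of the 34, at 0.399, with 0.187 RPKM (0.121 to 0.277) from 25 reads, and 0.390 (0.294 to 0.508) for H3K14ac from 55 reads. This island also holds the TSS of Nphp4. Kcnip2 and Kcnip4, which encode calcium-binding partners of Kcnd channels, were counted as low for KAT7 too. The relative KAT7 interval of Kcnip2 (0.364 to 1.03, from 16 reads) held 1, and that of Kcnip4 (0.366 to 0.926) did not. Kcnip2 had relative levels of 0.637 for KAT7 and 0.854 for H3K14ac, and Kcnip4 had 0.600 for KAT7 and 0.517 for H3K14ac. Kcnmb4, a BK channel beta subunit gene, had 0.830 for KAT7 and 0.919 for H3K14ac, at an island that also holds the TSS of Kcnmb4os2.

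The ratio of KAT7 to H3K14ac at the islands was above 1 more often among members than among all islands. Its interval lay above 1 at 10 of 34 member islands (29.4%), where 14.7% of all islands had that, and below 1 at 3, where 8.17% had. They included Kcnj6 (2.91, 1.46 to 6.18), Kcnma1 (2.58, 1.63 to 4.21), Kcnh1 (2.58, 1.14 to 6.37), Kcnt1 (1.90, 1.07 to 3.47), Kcnh4 (1.79, 1.11 to 2.93), Kcnn2 (1.65, 1.18 to 2.31), Kcnq5 (1.58, 1.13 to 2.22), Kcnc1 (1.53, 1.246 to 1.88) and Kcnk12 (1.41, 1.04 to 1.91). The 3 below 1 were Kcnh2 (0.328, 0.182 to 0.565), Kcnj8 (0.470, 0.243 to 0.868) and Kcnab2 (0.480, 0.287 to 0.784), with Kcnk5 (0.560, 0.297 to 1.02) and Kcna2 (0.742, 0.523 to 1.05) next. The median ratio was 1.12 over the members and 1.06 over the other islands. Among the 10, Kcnc1 and Kcnq5 were high for KAT7, while Kcnj6, Kcnma1, Kcnh1 and Kcnt1 had a relative H3K14ac level of 0.463 or less.

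The few Bottom-class members with a TSS island were counted as low in H3K14ac there, from small read counts. Reads were 9 at Kcnh1, 13 at Kcnj3, 12 at Kcnj6 and 20 at Kcns2. The relative interval of Kcnj3 (0.387 to 1.24) held 1. H3K14ac was low at all 4 Bottom-class member islands (Kcnh1, Kcnj3, Kcnj6 and Kcns2), at 12 of the 27 Other-class ones, and at 51 of all 102 Bottom-class islands. KAT7 was low at 2 of those 4 members, at 12 of the 27 and at 33 of the 102. The remaining 3 member islands hold TSSs of more than 1 gene and have no single class.

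Over gene bodies the channel genes had slightly lower KAT7 values than genes of similar length and a median H3K14ac level at that of such genes. Median RPKM was 0.374 for members and 0.399 for other bodies for KAT7, and 0.385 and 0.381 for H3K14ac. Background reads are included in these values, and how much of them is signal was not tested. Of the 88 bodies, 75 were used: 12 share bases with another gene body, and Kcnd1 lies on chromosome X. The median relative KAT7 level was 0.939, against 1.00 for the other bodies, and 60 of 75 members lay under 1, or 80.0%, against 49.9% of the others. For H3K14ac the median was 1.00 for members and 1.00 for the others, with 34 of 75 members under 1. Few single genes stood out: 0 members were high and 2 low, where 3.26% and 3.83% of all bodies were. For H3K14ac 1 member was high and 0 low, where 3.36% and 4.22% were.

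**Figure D2:**
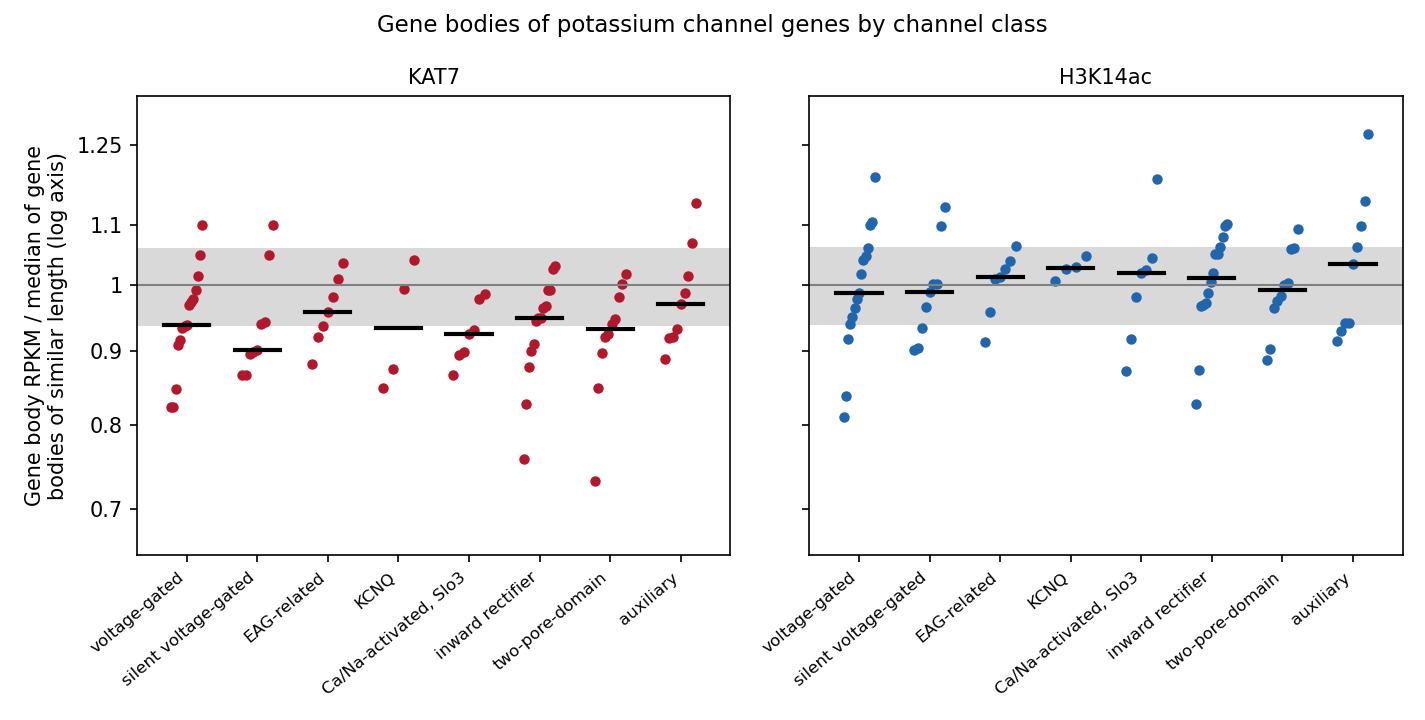
Relative KAT7 (left) and H3K14ac (right) level of the 75 gene bodies by channel class on a log axis; points are genes, black bars are class medians, and the grey band is the middle 50% of all other gene bodies. For KAT7 all 8 class medians lie between 0.901 and 0.970, under the line at 1, and for H3K14ac they lie on both sides of it.

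All 8 class medians for KAT7 lay under 1. Median relative KAT7 levels were 0.938 for voltage-gated, 0.901 for silent voltage-gated, 0.958 for EAG-related, 0.934 for KCNQ, 0.924 for calcium- and sodium-activated (with the sperm channel gene Kcnu1), 0.948 for inward rectifier, 0.932 for two-pore-domain and 0.970 for auxiliary genes. The H3K14ac medians of the same classes were 0.987, 0.989, 1.01, 1.03, 1.02, 1.01, 0.991 and 1.03. All 8 Kcna genes, all 4 Kcng genes and all 7 calcium- and sodium-activated genes lay under 1 for KAT7. By expression class, the 8 Bottom-class members had a median of 0.930 for KAT7 and the 67 Other-class members 0.939. Among all genes the Bottom class had 0.946, the Other class 0.999 and the Top class 1.09.

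Of the single bodies, Kcnk16, a pancreatic leak channel gene, had the lowest relative KAT7 level, 0.732, with 0.291 RPKM (0.256 to 0.329) for KAT7 and 0.334 (0.297 to 0.373) for H3K14ac. Kcnj11 had 0.311 (0.264 to 0.365) for KAT7, with 0.318 (0.271 to 0.370) for H3K14ac, a relative KAT7 level of 0.758. These are the 2 bodies counted as low for KAT7. Kcna6 (0.847) and Kcnh1 (0.881) were also among the lowest by their upper interval bound. The bodies with most KAT7 by lower bound were Kcnc1, with a relative level of 1.10 and 0.437 RPKM (0.420 to 0.454), Kcnd2 (1.05), Kcnq5 (1.04), Kcnh5 (1.04) and Kcnv1 (1.10). For H3K14ac, Kcne4 was the 1 high body, at 1.27 with 0.493 RPKM (0.429 to 0.564). Ordered by lower interval bound, the bodies with most H3K14ac were Kcnn4 (1.18), Kcne4, Kcnk13 (1.09), Kcnc1 (1.11) and Kcnj10 (1.10). Among the lowest for H3K14ac by upper interval bound were Kcnt2 (0.872), Kcna7 (0.810), Kcnh1 (0.913) and Kcnab2 (0.914). Kcnc1 was thus above the median and Kcnh1 below it in both columns, neither by enough to count as high or low.

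Of genes known from glia and neural progenitors, Kcnk1 lay under the median for KAT7, with a relative level of 0.939 (0.896 to 0.984). The relative KAT7 intervals of Kcnj10 (0.946 to 1.04), Kcnj16 (0.957 to 1.03) and Kcnk10 (0.959 to 1.003) held 1. For H3K14ac, Kcnj10, Kcnj16 and Kcnk1 lay above the median. Kcnj10 encodes the main astrocyte inward rectifier, and its body had 0.393 RPKM (0.374 to 0.412) for KAT7, with 0.414 (0.396 to 0.433) for H3K14ac, relative levels of 0.992 for KAT7 and 1.10 for H3K14ac. Kcnj16, its partner subunit, had 0.396 (0.382 to 0.410) for KAT7, with 0.413 (0.400 to 0.427) for H3K14ac, relative levels of 0.992 for KAT7 and 1.08 for H3K14ac. Kcnk10, a mechanosensitive leak channel gene, had 0.391 (0.382 to 0.400) for KAT7, with 0.388 (0.380 to 0.397) for H3K14ac. Kcnk1 had 0.372 (0.355 to 0.390) for KAT7, with 0.398 (0.381 to 0.416) for H3K14ac. None of these was counted as high or low. The same held for the neuronal genes Kcna2 (0.974 for KAT7), Kcnq3 (0.994), Kcnma1 (0.986) and Kcnt1 (0.898), for Kcnh2 (0.980) and for the Bottom-class genes Kcnb2 (0.969), Kcne1 (0.918), Kcnj1 (0.964), Kcnj3 (0.944), Kcnj6 (0.900), Kcns2 (0.943) and Kcnt2 (0.894).

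Neighbouring members were also set side by side. Kcna3, Kcna2 and Kcna10 lie in a row on chromosome 3 between 107036162 and 107195721, on the plus strand. Their relative KAT7 levels were 0.916 (0.746 to 1.11), 0.974 (0.902 to 1.05) and 0.824 (0.756 to 0.896). Their relative H3K14ac levels were 1.19 (0.994 to 1.41), 1.10 (1.02 to 1.18) and 1.06 (0.983 to 1.14). The H3K14ac intervals overlapped, and for KAT7 only those of Kcna2 and Kcna10 did not. Kcna10, a gene without a TSS island whose promoter is printed above, had 0.324 RPKM (0.298 to 0.353) for KAT7, with 0.389 (0.361 to 0.419) for H3K14ac. Of the Kcna3 body 49.1% lies inside its TSS island, which is not the case for the longer genes of the row.

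The 12 bodies that share bases were left out of these counts. Kcnj13, which lies wholly inside Gigyf2, and Kcnmb1, inside Kcnip1, were listed with 0 reads. Kcnq1 shares 83437 of its 319789 bases with the imprinted antisense transcript gene Kcnq1ot1 and had 0.255 RPKM for KAT7 and 0.282 for H3K14ac. RPKM divides by the whole length of a body, shared bases included. Whether reads in shared bases were counted was not tested. The values of these 12 genes may therefore be too low, to an extent that depends on the part shared. This part was 1 of 17842 bases at Kcnh3 and 516 of 136263 at Kcnk2, but the whole body at Kcnj13 and Kcnmb1. Where it is large, values are not comparable with other bodies. KAT7 was 0.349 at Kcnab1, 0.356 at Kcnip1, 0.380 at Kcnip4, 0.382 at Kcnk2, 0.379 at Kcnk3, 0.361 at Kcnmb4, 0.396 at Kcnn2 and 0.348 at Kcnh3, which shares 1 base with Mcrs1. H3K14ac at the same genes was 0.360 at Kcnab1, 0.382 at Kcnip1, 0.382 at Kcnip4, 0.404 at Kcnk2, 0.385 at Kcnk3, 0.355 at Kcnmb4, 0.397 at Kcnn2 and 0.356 at Kcnh3. Kcnd3 had 0.426 for KAT7 and 0.440 for H3K14ac, the highest of the 12 in both columns. Kcnd1 on chromosome X had 0.188 for KAT7 and 0.183 for H3K14ac.

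**Figure D3:**
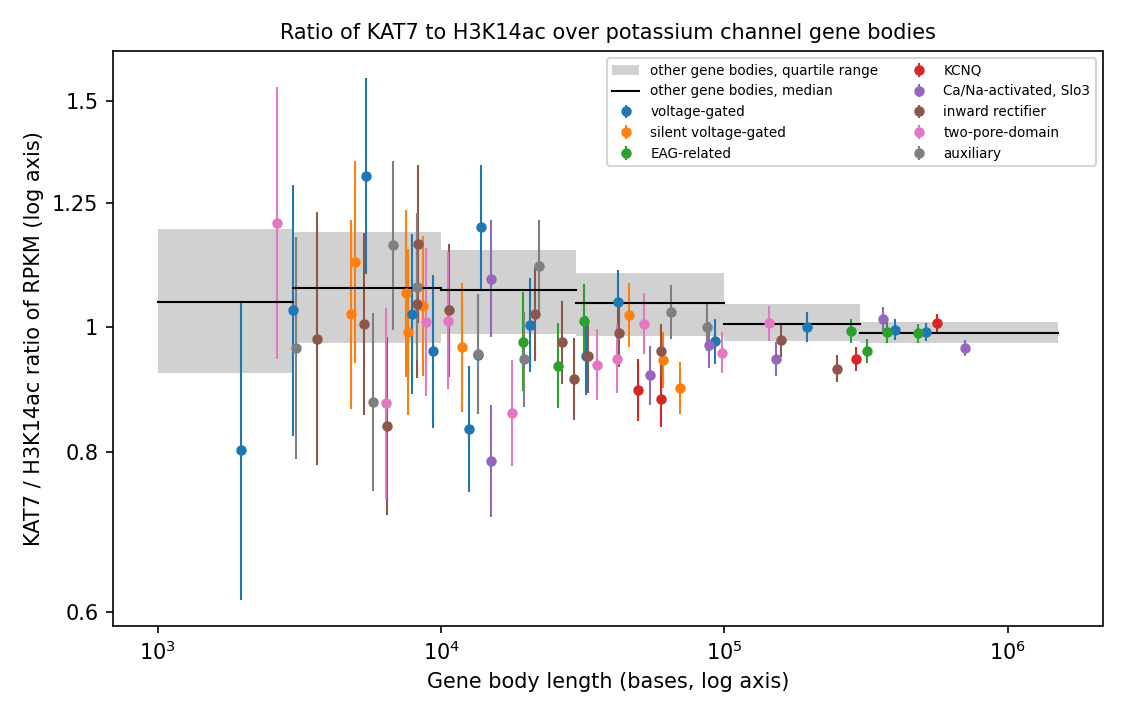
Ratio of KAT7 to H3K14ac against gene body length for the 75 used channel genes, both axes log; points are coloured by class with 95% binomial intervals, and the black line and grey band are the median and quartile range of other gene bodies in each length bin. Between 10000 and 100000 bases most channel genes lie under the black line, and above 300000 bases they lie around it.

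The ratio of KAT7 to H3K14ac over bodies was lower in channel genes than in other genes. Its median was 0.989 over the members and 1.05 over the other bodies. The interval lay above 1 at 4 of 75 members, where 34.2% of all bodies had that, and below 1 at 17, where 9.06% had. Set against the median ratio of all bodies, 1.05, in place of 1, the interval lay above at 2 members, where 19.2% of all bodies had that, and below at 38, where 21.2% had. Those above 1 included Kcna7 (1.31, 1.10 to 1.56), a skeletal muscle channel gene, Kcnj14 (1.16, 1.01 to 1.34) and Kcnip2 (1.12, 1.03 to 1.21), and Kcnab3 (1.16, 0.996 to 1.35) came next. Among the lowest by upper bound were Kcnn4 (0.787, 0.712 to 0.870), the intermediate-conductance calcium-activated channel gene, Kcna10 (0.833, 0.743 to 0.933), Kcnk18 (0.857, 0.780 to 0.942) and Kcng2 (0.897, 0.855 to 0.940). By class, 3 of 4 KCNQ genes and 4 of 7 calcium- and sodium-activated genes had the interval below 1, against 1 of 15 voltage-gated and 0 of 9 auxiliary genes. Longer bodies hold more reads and have narrower intervals, so these counts depend on length. Median lengths of the 4 classes were 175478, 88312, 13866 and 13468 bases in that order. Their median ratios were 0.919, 0.964, 0.996 and 1.00.

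By length, the median ratio of channel genes lay under that of others in each bin below 300000 bases. From 1000 to 3000 bases it was 1.00 for 2 channel genes and 1.05 for others. Bodies of 3000 to 10000 bases had 1.02 for 20 channel genes and 1.07 for others. Those of 100000 to 300000 bases had 0.978 for 7 channel genes and 1.005 for others. The difference was largest in the 2 middle bins. In bodies of 10000 to 30000 bases the median ratio was 0.969 for 18 channel genes and 1.07 for others, and from 30000 to 100000 bases it was 0.956 for 20 channel genes and 1.04 for others. From 300000 bases on it was 0.992 for 8 channel genes and 0.990 for others. The low KAT7 level was found with and without a TSS island. The 29 members with a TSS island had a median relative KAT7 level of 0.936 over the body, against 1.02 for other genes with one, and the 46 without had 0.948, against 0.975 for other genes without one.

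Windows of 2001 bases next to the genes, usable for plus-strand genes alone, gave a mixed picture. In the 40 windows upstream of channel genes the median relative level was 0.950 for KAT7 and 0.995 for H3K14ac. KAT7 was high at 2 (Kcna3 and Kcnd3) and low at 8, where 6.96% and 8.62% of all such windows were. H3K14ac was high at 1 (Kcnd3, with 0.702 RPKM from 199 reads) and low at 4, where 8.5% and 11.2% were. The ratio of KAT7 to H3K14ac had its interval above 1 at 3 windows, where 14.2% of all had, and below 1 at 1, where 3.04% had. In the 38 windows after the gene ends the order was the reverse, with a median relative level of 1.07 for KAT7 and 1.03 for H3K14ac. KAT7 was high at 4 of them (Kcne2, Kcnd2, Kcnc2 and Kcnd3) and low at 2 (Kcnk18 and Kcna7), where 4.29% and 7.65% of all such windows were. H3K14ac was high at 0 and low at 0, where 5.72% and 8.55% were. The ratio had its interval above 1 at 4, where 10.8% had, and below 1 at 0, where 3.18% had.

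**Figure D4:**
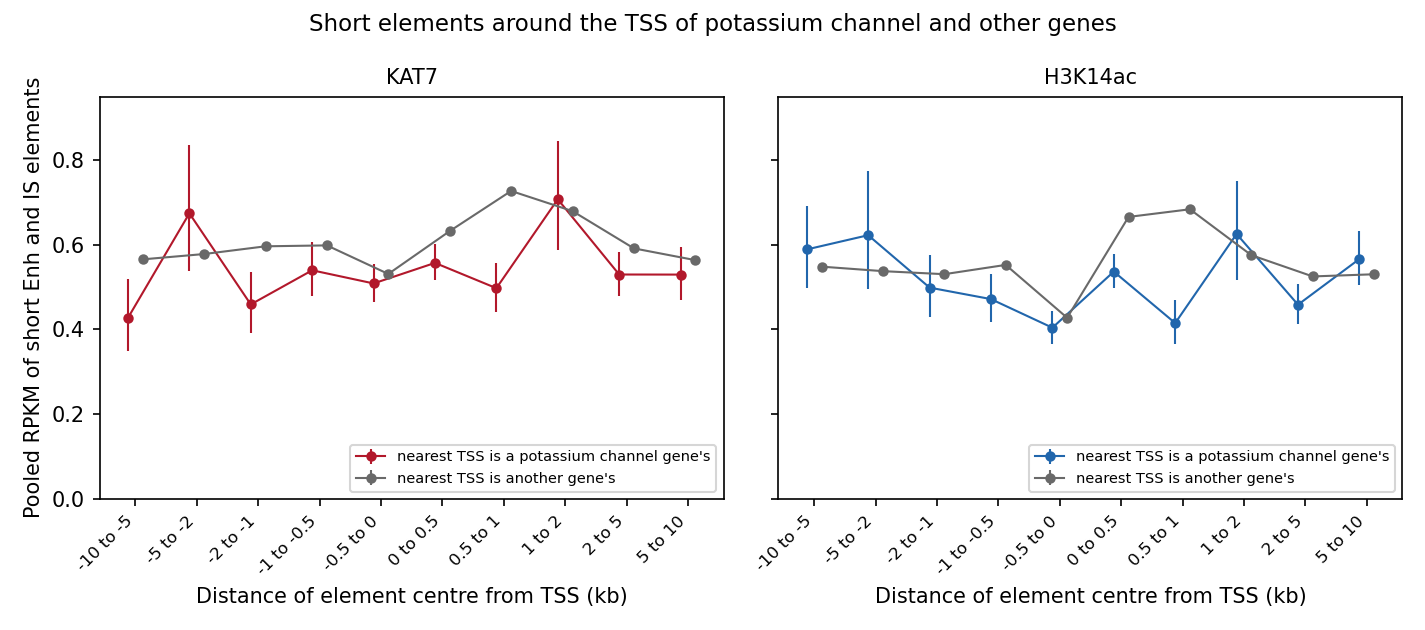
Pooled KAT7 (left) and H3K14ac (right) RPKM of short Enh and IS elements by the distance of their centre from the nearest TSS in kilobases, for channel genes (colour) and other genes (grey) with 95% counting intervals. From 0.5 to 1 kb downstream of the TSS the channel gene points lie under the grey ones in both panels, and in several other bins the intervals reach the grey line.

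Short elements around the TSS of channel genes carried less of both signals than those of other genes in several distance bins, with the widest gap just downstream. The table's classes named Enh and IS, names that the file does not spell out, were limited to elements of at most 400 bases. From 500 to 1000 bases after the TSS, 27 elements at 20 channel genes had a pooled KAT7 value of 0.497 RPKM (0.442 to 0.557), against 0.727 at other genes, and an H3K14ac value of 0.415 (0.366 to 0.469), against 0.684. From 0 to 500 bases, 47 elements had 0.557 (0.516 to 0.601) for KAT7, against 0.632, and 0.537 (0.497 to 0.578) for H3K14ac, against 0.666. From 1000 to 2000 bases, 10 elements had 0.707 (0.587 to 0.845) for KAT7, against 0.679, and 0.625 (0.516 to 0.751) for H3K14ac, against 0.575, values that lay above those of other genes and whose intervals held them. From 2000 to 5000 bases both were lower again, with 0.530 (0.480 to 0.584) for KAT7, against 0.591, and 0.458 (0.413 to 0.507) for H3K14ac, against 0.525. Upstream, KAT7 was 0.459 (0.391 to 0.536), against 0.596, from 2000 to 1000 bases before the TSS and 0.427 (0.349 to 0.518), against 0.566, from 10000 to 5000 bases before it. In those upstream bins the H3K14ac intervals held the value of other genes. From 5000 to 2000 bases before the TSS both signals lay above those of other genes. KAT7 was 0.674 (0.537 to 0.836), against 0.578, and H3K14ac 0.623 (0.494 to 0.774), against 0.538. These intervals held the values of other genes. From 1000 to 500 bases before the TSS, H3K14ac was 0.472 (0.417 to 0.532), against 0.552, and the KAT7 interval held the other value. In the last 500 bases before the TSS both intervals held them. Elements of 1 gene are not independent of each other, and pooled intervals do not include the spread between elements.

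Inside the gene bodies, CpG islands far from a TSS had a low median H3K14ac level. There were 16 of them in 12 genes, with a median relative level of 1.07 for KAT7 and 0.751 for H3K14ac. KAT7 was high at 3 and low at 3, where 23% and 25.4% of all such islands were. H3K14ac was high at 2 and low at 9, where 26.2% and 29.3% were. The island near the end of Kcnk12 (chr17:87745987-87746792), singled out after its values were seen, had 0.648 RPKM from 70 KAT7 reads and 0.210 from 24 H3K14ac reads, a ratio of 3.08 (1.91 to 5.13). Enh elements far from a TSS had a median of 1.00 for KAT7 and 1.06 for H3K14ac over 67 elements. Of these, 10 were high and 13 low for KAT7, where 12.6% and 20% of all were, and H3K14ac was high at 14 and low at 9, where 18.9% and 19.8% were. IS elements far from a TSS also lay close to their median, with 1.02 for KAT7 and 1.05 for H3K14ac over 170 elements. Of them, 42 were high and 51 low for KAT7, where 27.7% and 32.3% of all were, and H3K14ac was high at 55 and low at 51, where 27.8% and 32.3% were.

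Elements near a TSS inside channel genes varied by class. CpG islands near a TSS, a class that includes TSS islands, had a median of 0.924 for KAT7 and 0.844 for H3K14ac over 58 islands. Counted as high for KAT7 were 7, and as low 17, where 21.7% and 23% of all were, and H3K14ac was high at 10 and low at 28, where 27.8% and 29.9% were. The 37 Enh elements near a TSS had 0.972 for KAT7 and 1.00 for H3K14ac. Their KAT7 was high at 7 and low at 10, where 18.8% and 19.6% of all were, and their H3K14ac was high at 10 and low at 9, where 23.9% and 25.5% were. IS elements near a TSS had 0.907 for KAT7 and 0.922 for H3K14ac over 153 elements, against 1.04 for KAT7 and 1.05 for H3K14ac in bodies of other genes. KAT7 was high at 34 and low at 58 of these, where 29.5% and 32.4% of all were, and H3K14ac was high at 34 and low at 60, where 32.2% and 34.9% were.

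Many channel genes without a TSS island had one close by. Of the 54, a CpG island lay within 500 bases of the TSS in 19 and within 10000 bases in 29. These include Kcnk3 at 2 bases and Kcnj10 at 16 bases, whose island had 0.544 RPKM for KAT7 and 0.450 for H3K14ac. The H3K9me3 domains listed in the table touched channel genes about as often as genes of similar length, while set 1 covered less of their bodies. Set 1 touched 34.1% of members, against 34.5% of genes of similar length, and set 2 touched 25%, against 24.2%. The mean share of a body covered by set 1 was 5.26% for members and 8.25% for genes of similar length, and for set 2 it was 4.14% for members and 3.88% for genes of similar length.

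Other ion channel genes showed body levels close to those of the potassium channels. Median relative KAT7 levels over bodies were 0.953 for 11 sodium channel genes, 0.930 for 15 calcium channel genes, 0.943 for 7 HCN and CNG genes, 0.942 for 12 chloride channel genes and 0.933 for 21 TRP channel genes. The sodium pump genes had 1.01 over 6 bodies and genes of proteins that associate with potassium channels had 0.967 over 11. At TSS islands the 12 calcium channel genes had 0.780 for KAT7 and 0.766 for H3K14ac and the 4 HCN and CNG genes had 0.789 for KAT7 and 0.593 for H3K14ac, both under the potassium channel medians. The 9 TRP genes had 1.09 for KAT7 and 1.03 for H3K14ac, and the 8 chloride channel genes had 0.982 for KAT7 and 1.22 for H3K14ac. The KAT7 level over bodies was thus under 1 in the median of 5 other lists of channel genes as well.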

How the data were processed

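The data are ChIP-seq of KAT7 and H3K14ac in mouse neural stem and progenitor cells. The table holds 240814 regions in 12 classes, and per the file headers each region has a read count and an RPKM value made by the authors, with 1 merged column per antibody. The deposited RPKM was the count over region length and 1 read total per column for 100% of regions, within a relative tolerance of 1e-06. Bowtie2, SAMtools, featureCounts, Picard and deepTools, with build mm10, are named per the submitters' processing notes; the sources used here do not give versions, roles or how libraries were merged. Genes were named from RefSeq (GRCm38.p6) by identifier, found for 96.7% of genes, and promoter sequences are RefSeq's.

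Regions were left out if they shared bases with a region of their class, lay on X, Y or the mitochondrial genome, exceeded 5 RPKM or had a mean RPKM under 0.1; at least 30 regions of similar length were required. Intervals are exact Poisson (levels) or exact binomial (ratios), at 95%, computed with Python 3.11.15, numpy 2.4.6, pandas 2.3.3 and scipy 1.17.1. They were checked on simulated counts with counting error alone, which cannot show how they perform with further spread between regions or libraries. The planned genotype comparison needs values per library and was not run. Genes named are a set list of 20, the 5 outermost by interval bound in each direction, the Top and Bottom class members and those left out by a filter; beyond that rule, values at the other TSS islands are given, and some members are counted but not reported here by name. The printed promoters were limited to members whose 250 bases before the TSS hold no RefSeq gene. The members, gene lists and comparisons were chosen with earlier results of these data known. Alternatives changed the matching, filters, fold limit and summary.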

Additional observations from a re-analysis of the deposited data

How the results depend on the processing

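Of the main medians and counts under each alternative, 139 differed little and 14 moved. Across the alternatives the median relative KAT7 level over bodies stayed under 1, from 0.936 to 0.970. That of H3K14ac ranged from 0.998 to 1.01, on both sides of 1. With summed counts over summed lengths in place of a median, the relative KAT7 level of channel gene bodies was 0.970 instead of 0.939. With a 1.5-fold limit, 0 bodies were below for KAT7 (1.15% of all bodies) and 0 above for H3K14ac (1.23%), and 9 islands were below for KAT7 (10.1% of all islands) and 1 above for H3K14ac (12.9%). Without matching on length, H3K14ac over bodies was above at 2 and below at 1 (5.07% and 3.79% of all). H3K14ac over bodies was also below at 1 when matched on a TSS island, with regions sharing bases kept, or with X and Y kept (4.03%, 6.72% and 7.69% of all). Matched on expression class, H3K14ac was above at 5 islands (27.2% of all). With the ratio of KAT7 to H3K14ac set against the median of its class instead of 1, its interval lay above at 2 bodies (19.2% of all), below at 38 bodies (21.2%) and below at 5 islands (10.9%). For these values the cause was not tested. The median relative level at the islands ranged from 0.846 to 0.952 for KAT7 and from 0.785 to 0.881 for H3K14ac over the alternatives.

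No paired analysis was possible because the merged columns carry no replicate; the genotype comparison, its replicate block and leaving out each replicate were not run. Depth limits the islands most: of those described, some rest on as few as 11 KAT7 or 9 H3K14ac reads.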
